A study of Mus musculus with 2 samples.

Results

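The Krüppel-like factors are zinc-finger transcription factors, and 10 of their genes are described here in activated mouse macrophages: Klf2, Klf3, Klf4, Klf6, Klf7, Klf9, Klf10, Klf11, Klf13 and Klf16. They were chosen by gene symbol, not by their values, and are 10 of the 55536 annotated genes with values. Both libraries came from bone marrow-derived macrophages of C57BL/6J mice, which are primary phagocytes grown from marrow cells. The cells received 100 ng/ml lipid A, the TLR4-activating part of lipopolysaccharide, for 12 h, were then kept without it for 12 h, and were given 100 ng/ml again for 90 min. RNA of the nucleoplasm, depleted of ribosomal RNA, was sequenced as total RNA from 1 µg (replicate 1) or 500 ng (replicate 2). Both libraries form 1 group and carry the same donor entry, so the spread between them may be technical. No untreated, once-treated or cytoplasmic library was analysed here, so each value is a level within this condition, with no test against another one.

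Krüppel-like factors end in 3 zinc fingers of the C2H2 type, which bind CACCC boxes and GC-rich boxes in promoters and enhancers, while their N-terminal parts differ and recruit coactivators or corepressors. By those parts the genes fall into a mostly activating branch (Klf2, Klf4, Klf6 and Klf7), a branch that binds the corepressor CtBP (here Klf3) and a branch that binds the corepressor Sin3 (Klf9, Klf10, Klf11, Klf13 and Klf16). In macrophages Klf2 is known as a brake on inflammatory activation, Klf4 as a factor of monocyte differentiation and alternative activation, and Klf6 as a promoter of inflammatory gene expression.

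The coding sequence of the fingers is where these genes are most alike, and it shows how far reads of relatives can be told apart. Among the 45 pairs of the 10 genes, the longest run of bases shared on the same strand by any of their transcripts had a median of 14 bases. The longest such run within coding sequence was 26 bases, shared by Klf6 and Klf7. It is printed below with the matching stretch of the coding sequence of Klf2, Klf4 and Klf3, and capitals mark bases identical to the Klf6 and Klf7 run.
Klf6: GACAGGTGTTTCTCCAGGTCTGACCA
Klf7: GACAGGTGTTTCTCCAGGTCTGACCA
Klf2: GACcGGgccTTCTCCAGGTCcGACCA
Klf4: GACAGGgccTTtTCCAGGTCgGACCA
Klf3: GACcGaaGcTTCTCtcGcTCTGACCA
Klf2 and Klf4 each matched 21 of the 26 bases and Klf3 matched 19. On the same strand only 1 of the 45 pairs, Klf3 with Klf13, shared a run of 31 bases or more (36 bases). That run was not coding in either gene. Words of 31 bases were searched on either strand, here and below, and by this search Klf10-204 and Klf13-201 also shared words. No 31-base word of Klf2, Klf6, Klf9 or Klf16 transcripts occurred in a transcript of another gene.

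The genes spanned a wide range of levels. The files give each gene in TPM (a share of the transcripts in a library, corrected for transcript length), so levels of different genes can be compared. Klf6 was highest, with a mean of 160 TPM. It was 1230-fold above the lowest gene in replicate 1, Klf9, and 669-fold above the lowest in replicate 2, Klf11. Klf6 alone held 67.5% of the summed TPM of the 10 genes in replicate 1 and 53.0% in replicate 2. In both libraries 6 of the 10 genes reached 1 TPM, beside 38.6% of the 22028 protein-coding genes. The median of the 10 was 3.12 TPM, against 0.22 TPM for all protein-coding genes and 7.06 TPM for those at 1 TPM or more in both libraries.

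**Figure D1:**
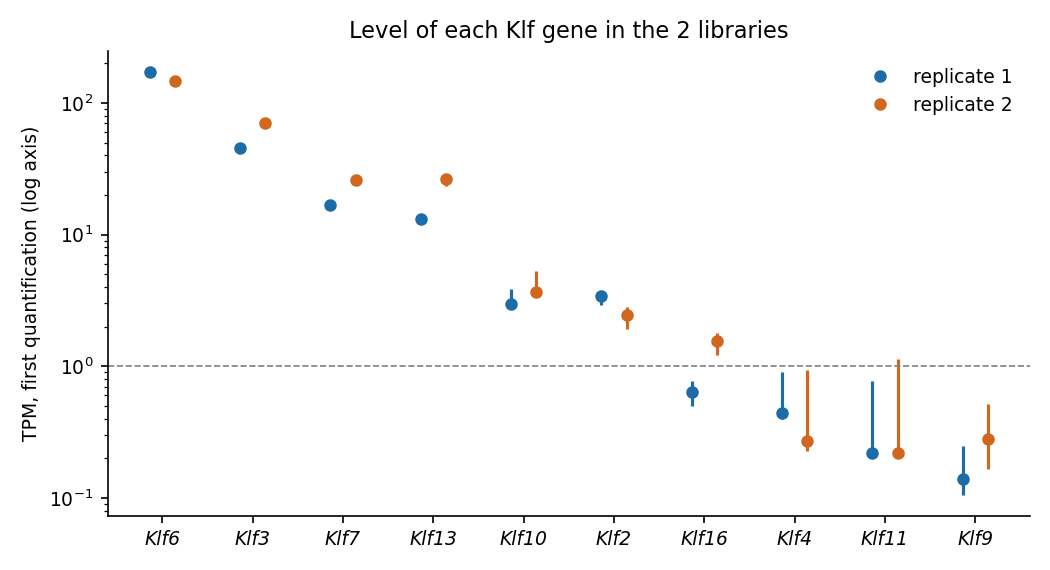
TPM of each Klf gene by the first quantification on a log axis, with 1 point per library and a vertical line for the deposited credibility interval, whose level the files do not give. Klf6 lies above 100 TPM in both libraries, Klf3, Klf7 and Klf13 above 10, and Klf4, Klf9 and Klf11 below the dashed line at 1 TPM.

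In the activating branch, Klf6 stood at 172 TPM in the first library and at 147 TPM in the second, with a mean of 160 ± 17.8 TPM (SD, n = 2). It ranked 142nd of the 22028 protein-coding genes and rested on 29885 and 14363 counts. Klf7, the closest relative of Klf6 and a factor best known from neurons and fat tissue, stood at 16.8 and 25.8 TPM (21.3 ± 6.38 TPM, SD, n = 2) on 4787 and 4214 counts. Klf6 was thus above Klf7 in each library, by more than the spread of either gene.

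Klf2 was measured at 3.40 and 2.44 TPM (2.92 ± 0.679 TPM, SD, n = 2) on 270 and 103 counts. Klf4 was measured at 0.44 and 0.27 TPM (0.355 ± 0.120 TPM, SD, n = 2) on 60 and 20 counts. Both were lower in replicate 2, and Klf2 was above Klf4 in each library. The credibility intervals of Klf4, from 0.396 to 0.898 TPM in replicate 1 and from 0.228 to 0.936 TPM in replicate 2, overlap and reach above its listed values, so its 2 libraries cannot be ordered by them. The intervals of Klf2, from 2.94 to 3.73 TPM and from 1.92 to 2.83 TPM, do not overlap.

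Klf3, a repressor that acts through CtBP, was the second highest gene, at 45.1 TPM in the first library and 70.1 TPM in the second (57.6 ± 17.7 TPM, SD, n = 2), on 8320 and 6972 counts. Its rank was 532nd of the protein-coding genes. Klf6 exceeded Klf3 by 3.82-fold in replicate 1 and by 2.10-fold in replicate 2, so the order of both genes held in each library while the distance did not.

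In the Sin3-binding branch, Klf13, known as an activator of Ccl5 in T cells, led at 13.2 and 26.3 TPM (19.8 ± 9.26 TPM, SD, n = 2) on 2190 and 1667 counts. Klf10, a TGF-beta-inducible early gene, stood at 2.96 and 3.69 TPM (3.33 ± 0.516 TPM, SD, n = 2) on 389 and 264 counts. Klf16, a ubiquitous GC-box-binding repressor, stood at 0.64 and 1.54 TPM (1.09 ± 0.636 TPM, SD, n = 2) on 77 and 98 counts. It was at or above 1 TPM in replicate 2 only.

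Klf11, the relative of Klf10 that is also induced by TGF-beta, was listed at 0.22 TPM in both libraries, on 41 and 22 counts. Klf9, a target gene of the glucocorticoid receptor, was listed at 0.14 and 0.28 TPM (0.21 ± 0.0990 TPM, SD, n = 2), on 30 and 23 counts. Both were measured above the limit of 3 counts per library that a count of 0 would allow (0.102 and 0.169 CPM, the count scaled to library size), but at so few counts the order of Klf11 and Klf9 was not detectable. The 5 genes of the branch ranged from 0.21 to 19.8 TPM and the 4 genes of the activating branch from 0.355 to 160 TPM, so neither branch as a whole was high or low.

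Of the 9 neighbours in the order of levels, 3 pairs had overlapping library values. These were Klf7 with Klf13, Klf10 with Klf2, and Klf11 with Klf9. The first of these pairs had a ratio of 1.27 in replicate 1 and 0.980 in replicate 2, so Klf13 was the higher one in replicate 2. By listed TPM the other 6 pairs kept their order in both libraries, with ratios of means from 1.61 (Klf4 over Klf11) to 5.95 (Klf13 over Klf10). The credibility intervals of Klf4 and Klf11 overlapped in both libraries, in replicate 2 at 0.228 to 0.936 and 0.223 to 1.13 TPM. Klf4 and Klf11 rested on 20 and 22 counts there, so their order was not detectable either.

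The libraries were compared with each other to show how far a Klf level depends on the library. For this the expected counts were rounded and scaled by TMM, and a log2 ratio of replicate 2 over replicate 1 was formed, with an exact binomial 95% interval that covers counting error only. The ratio was negative for Klf4, at -1.01 (-1.84 to -0.28), for Klf2, at -0.83 (-1.17 to -0.50), and for Klf6, at -0.50 (-0.53 to -0.47). It was positive for Klf16, at 0.90 (0.46 to 1.36), for Klf7, at 0.37 (0.31 to 0.43), for Klf3, at 0.30 (0.26 to 0.35), and for Klf13, at 0.16 (0.07 to 0.26). The intervals of Klf9, Klf10 and Klf11 held 0, with ratios of 0.17, 0.00 and -0.34. So 3 of the 4 genes of the activating branch were lower in replicate 2, and Klf7 was not.

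The interval left out 0 for 7 of the 10 genes, beside 59.4% of the 11368 protein-coding genes tested, so such a difference between these libraries was common. By direction, 4 of the 10 lay above 0 and 3 below, beside 25.2% and 34.2% of the protein-coding genes. Beyond 2-fold lay 1 of the 10 genes, Klf4, which was lower in replicate 2, beside 8.75% of protein-coding genes (5.01% lower and 3.74% higher) and 13.4% of all 14831 genes tested (5.85% lower and 7.52% higher). The median ratio of the 10 genes was 0.08, against -0.05 for protein-coding genes.

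Which single gene passed 2-fold depended on the setting. With library totals in place of TMM it was Klf16, at 1.07, and in the second quantification it was Klf2, at -1.12. Library totals moved the median of all genes from 0.01 to 0.18. Klf2, Klf4 and Klf6 were lower in replicate 2 in all 6 alternatives, and Klf3, Klf7, Klf9 and Klf16 were higher in all 6, although on the rescaled TPM of the second quantification, outside these 6, Klf7 was lower at -0.13. Klf13 was higher in 5 of 6, its ratio being -0.01 in the second quantification. Klf10 was higher in 1 of 6 and Klf11 in 1 of 6, so no direction is given for them. None is given for Klf9 either, which rested on 30 and 23 counts with an interval of -0.68 to 1.01. The 6 include the setting without a count filter, which repeats the main ratio of each gene and adds no separate evidence. Library totals, DESeq2 size factors and a prior count of 2 use the same counts, and the rescaled TPM comes from the same quantification. Agreement of sign among these settings is thus largely built in, and only the second quantification has counts of its own.

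**Figure D2:**
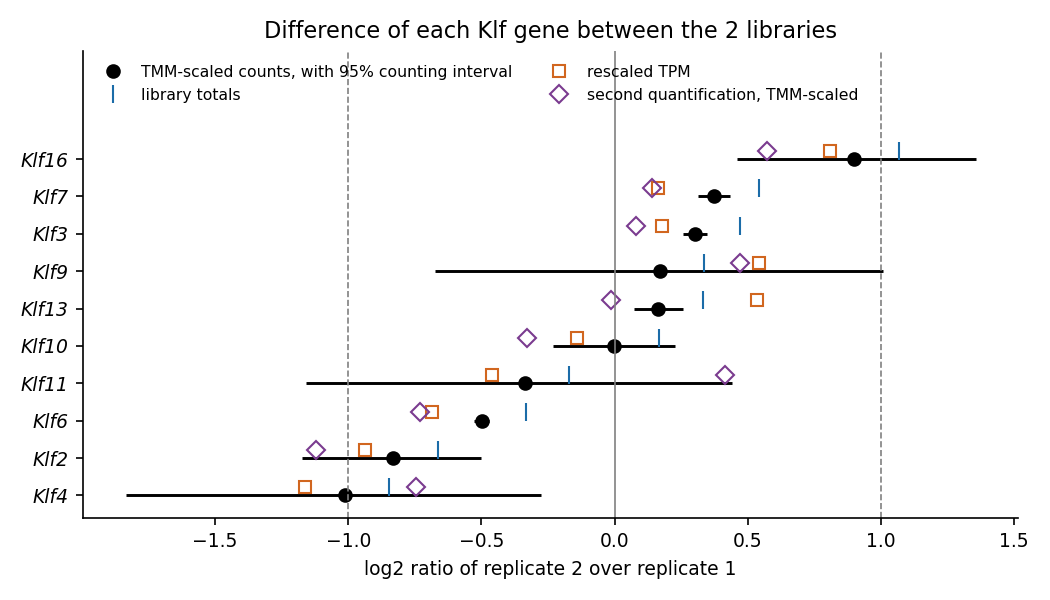
Log2 ratio of replicate 2 over replicate 1 for each Klf gene, with black points and bars for the TMM-scaled counts and their 95% counting interval, and open or coloured marks for 3 other scalings. Klf4, Klf2 and Klf6 lie left of 0 under each scaling drawn, Klf16 lies farthest right, and the dashed lines mark a 2-fold difference.

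The labelled cell type was checked with markers, since Klf2 and Klf4 are also strongly expressed by endothelial cells. All 8 macrophage markers were above 1 TPM in both libraries, and summed to 1460 and 2090 TPM. Of 7 endothelial markers, 2 reached 1 TPM in both libraries in the first quantification (Vwf at 11.2 TPM and Kdr at 7.77 TPM). Kdr held 2782 and 666 counts, Vwf 2459 and 793, Pecam1 58 and 19, and Cdh5 19 and 4. Tek and Tie1 had 2 and 1 counts in replicate 2 and 0 in replicate 1, and Cldn5 had 0 in both. The 7 markers summed to 23.5 and 15.9 TPM. In TMM-scaled counts the 4 endothelial markers with enough counts were lower in replicate 2 by more than 2-fold, as Klf4 was. In TPM of the first quantification only Vwf and Kdr were lower there, while Pecam1 (0.41 and 0.48 TPM) and Cdh5 (0.26 and 0.33 TPM) were not. That unit is not on 1 scale across the libraries, since coding and long non-coding genes held 24.7% of it in replicate 1 and 34.0% in replicate 2. The small rises of Pecam1 and Cdh5 in TPM therefore do not go against their fall in counts. In the second quantification Pecam1 also passed 1 TPM, at 1.31 and 7.20 TPM, and was again not lower in replicate 2. The part of such cells in the Klf2 and Klf4 values was not tested. Of the erythroid and megakaryocyte markers 1 of 7 reached 1 TPM (Pf4), and of the T and NK cell, B cell, neutrophil and fibroblast markers none did in the first quantification. In the second the T cell marker Cd3d was listed at 1.24 and 4.58 TPM, against 0 and 1 counts in the first. In bulk RNA, fewer cells of a type and less RNA per cell cannot be told apart.

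The size of the difference depended on the unit. In TPM as deposited the log2 ratio was higher than in counts for each of the 10 genes, for example 0.64 against 0.30 for Klf3 and 1.27 against 0.90 for Klf16. The gap was widest for Klf13 (0.99 against 0.16) and Klf9 (1.00 against 0.17), whose effective lengths also fell. For Klf13 the effective length assigned to the gene went from 3386 to 2444 bases, a log2 change of -0.47. That length is an average over isoforms, and the share of the short isoform Klf13-203 went from 49.9% to 61.0% of the TPM of the gene. Klf13-203 is annotated as a retained intron, has 1 exon of 934 bases, and held 230 and 297 counts. The full-length coding isoform Klf13-201, of 6396 bases, held 49.0% and 32.1% of the TPM but 1957 and 1352 counts. So most counts of Klf13 lay on the long coding isoform, while most of its TPM in replicate 2 lay on the short one.

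Retained-intron isoforms, which keep sequence that is normally spliced out and are often held in the nucleus, were annotated for 3 of the 10 genes. RNA that is not yet spliced holds the same sequence, and its part in the shares of these isoforms was not tested. In Klf3 they held 47.9% of TPM in replicate 1 and 57.4% in replicate 2 (52.7 ± 6.69%, SD, n = 2), which is more than the coding isoform Klf3-201 held (44.6% and 39.3%). Klf3-203 held 24.3% and 31.4%, and Klf3-204 held 23.6% and 26.0%. In Klf13 the share was 55.5 ± 7.82% (SD, n = 2). In Klf6 it was 13.0% and 6.46% (9.75 ± 4.65%, SD, n = 2), all of it on Klf6-202, while the coding isoform Klf6-201 held 86.7% and 93.0%. Over 5521 protein-coding genes with such an isoform and at least 1 TPM, the median share was 30.9%, with quartiles of 16.9% and 46.6%. Klf3 and Klf13 lay above the upper quartile and Klf6 below the lower one.

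The second quantification placed these shares nearer to each other, at a mean of 33.8% for Klf3, 41.6% for Klf13 and 25.7% for Klf6. In its replicate 1 Klf6 (31.5%) was above Klf3 (27.1%), and in its replicate 2 Klf3 (40.5%) was above Klf6 (19.9%), so the order of these genes did not hold across libraries there.

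The remaining isoform choices lay between coding transcripts. Klf7-202, of 7662 bases, held 74.5% and 81.9% of Klf7, and Klf7-201, of 1477 bases, held 23.3% and 16.4%. Klf10-201 held 55.0% and 52.4% of Klf10, and Klf10-202, which begins at another first exon 1624 bases downstream, held 41.2% and 47.6%. By posterior means of the first quantification they held 49.8% and 44.6% (Klf10-201) and 35.1% and 36.2% (Klf10-202). Of the sequence words searched above, 3 of 3014 in Klf10-201 and 23 of 2887 in Klf10-202 occurred in no other Klf10 isoform. The first exon of Klf10-201 is also that of Klf10-203 and Klf10-204. Use of either first exon was not tested apart from these assigned shares. By expected counts the full-length Klf4-201 and Klf11-201 held 100% of their genes in the first quantification. By its posterior means they held 67.6% and 49.6% (Klf4-201) and 47.2% and 35.9% (Klf11-201), so at these counts the leading isoform of Klf4 and Klf11 is uncertain. Klf9-202, a non-coding processed transcript, was listed at 33.2% of Klf9 in replicate 2 on 2.18 counts and at 0 in replicate 1. Klf2 and Klf16 have 1 annotated transcript each.

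Over the 5 Klf genes with at least 2 transcripts and at least 1 TPM in both libraries, the leading isoform held a median of 55.5% of TPM, against 52.9% over 7953 protein-coding genes. The median share on isoforms not annotated as coding was 10.1% for these 5 genes, against 31.3%. That median is the value of Klf6, between 55.0% for Klf3 and 55.5% for Klf13 and 0 for Klf7 and Klf10. All annotated isoforms of Klf7 and Klf10 are coding, so their 0 was fixed in advance, and the contrast does not describe the genes as a set. In the second quantification the median was 37.4% for the 5 genes, again the value of Klf6, and the share over all genes was not computed there.

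**Figure D3:**
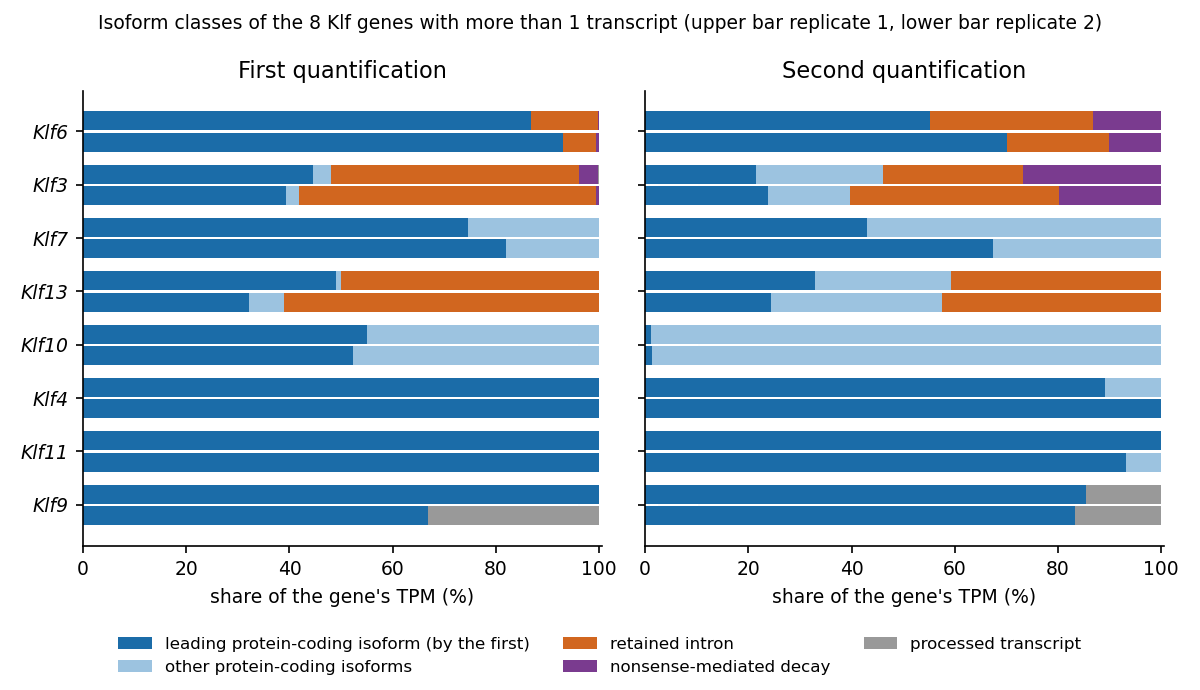
Share of each gene's TPM on its leading coding isoform (as ranked by the first quantification), on other coding isoforms and on non-coding classes, in percent, for the 8 Klf genes with more than 1 transcript, with 1 bar per library and 1 panel per quantification. Retained-intron isoforms hold about as much of Klf3 and Klf13 as their coding isoforms in the first panel, and nearly all of Klf10 moves to other coding isoforms in the second.

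Klf10 is the gene whose TPM depended most on the quantification. The second quantification listed it at 56.8 and 73.3 TPM in the libraries, against 2.96 and 3.69 TPM in the first. On TPM rescaled to the total of coding and long non-coding genes, which puts both quantifications on 1 scale, the second gave 31.8 times the first. Over 8506 protein-coding genes that ratio had a median of 1.06 and quartiles of 0.884 and 1.35, and 0.0118% of the genes had a higher one. In counts the ratio for Klf10 was 3.69, below that of Klf11, and 1.99% of genes had a higher one.

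Nearly all of that level lay on Klf10-204, a coding isoform of 326 bases, to which the second quantification gave 869 and 724 counts and 55.1 and 70.6 TPM, and the first gave 0 counts in both libraries. Without Klf10-204 the second quantification gave Klf10 1.79 and 2.71 TPM on 440 and 378 counts. The isoform has 3 exons of 148, 151 and 27 bases on chromosome 15 (GRCm38), from 38300559 to 38300706, from 38300267 to 38300417 and from 38299874 to 38299900 on the minus strand. Of its 296 words of 31 bases, 177 occur in no other Klf10 isoform. The junction to the last exon occurs in 0 other Klf10 isoforms and is printed with that exon in capitals.
Klf10-204 junction: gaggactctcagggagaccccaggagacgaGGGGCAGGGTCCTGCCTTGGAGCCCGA
The second exon, annotated as coding throughout, holds a stretch of 45 bases with a run of 33 adenines.
Klf10-204 second exon: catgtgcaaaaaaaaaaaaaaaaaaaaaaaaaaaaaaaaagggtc
In this stretch 15 of the 31-base words (5.07% of all words of the isoform) also occur in transcripts of 210 other genes. The other 5 isoforms of Klf10 had 0 such words. Whether the reads assigned to Klf10-204 come from this stretch was not tested, because the files hold no positions of reads.

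Klf11 also differed between quantifications, with 192 and 271 counts in the second against 41 and 22 in the first, or 7.35 times as many, and a rescaled TPM ratio of 4.65. Its transcript Klf11-201 held 11 of 4056 words that occur in transcripts of 7 other genes. The rescaled TPM ratio was 1.42 for Klf4, 1.29 for Klf3, 0.818 for Klf2 and 0.777 for Klf16, and from 1.04 to 1.13 for Klf6, Klf7, Klf9 and Klf13. In the order of mean TPM, the second quantification placed Klf10 above Klf3, Klf13 above Klf7, and Klf11 above Klf16 and Klf4, while Klf6 stayed highest and Klf9 lowest.

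**Figure D4:**
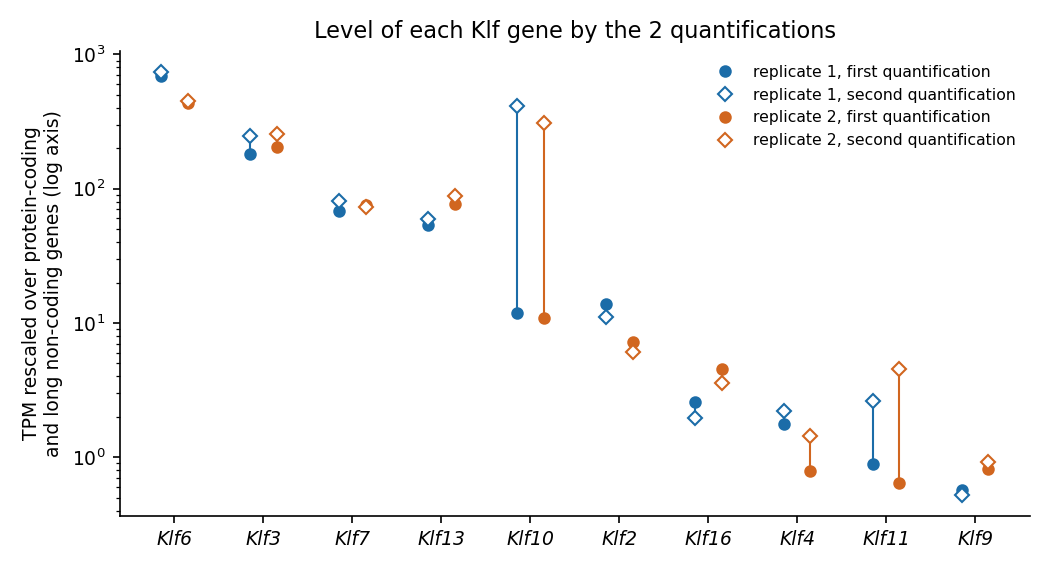
Rescaled TPM (over coding and long non-coding genes) for each Klf gene on a log axis, with filled circles for the first quantification, open diamonds for the second and a line joining both values of a library. The line is longest for Klf10, at 31.8-fold in the mean, and next longest for Klf11, at 4.65-fold.

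The position of the isoforms in the gene is drawn for Klf3 and Klf10. Klf3 lies on chromosome 5 from 64803388 to 64832901 (GRCm38, plus strand) and has 9 annotated transcripts, of which Klf3-203 begins 12462 bases and Klf3-204 begins 8952 bases after the first base of the gene. Both retained-intron isoforms therefore lack the first exon of Klf3-201. Between that exon and the next lies a separate annotated locus on the same strand, C230096K16Rik, a single exon of 1722 bases that awaits experimental checking in the annotation. It begins 626 bases into Klf3 and was measured at 20.5 and 30.4 TPM on 1500 and 1182 counts, a log2 ratio of 0.21 beside 0.30 for Klf3. Its level was below that of Klf3 in both libraries, and higher in replicate 2 as Klf3 was. Klf3 RNA that is not yet spliced holds the whole sequence of this locus on the same strand. The part of such RNA in the values of C230096K16Rik was not tested, so they cannot be read as a separate transcript.

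**Figure D5:**
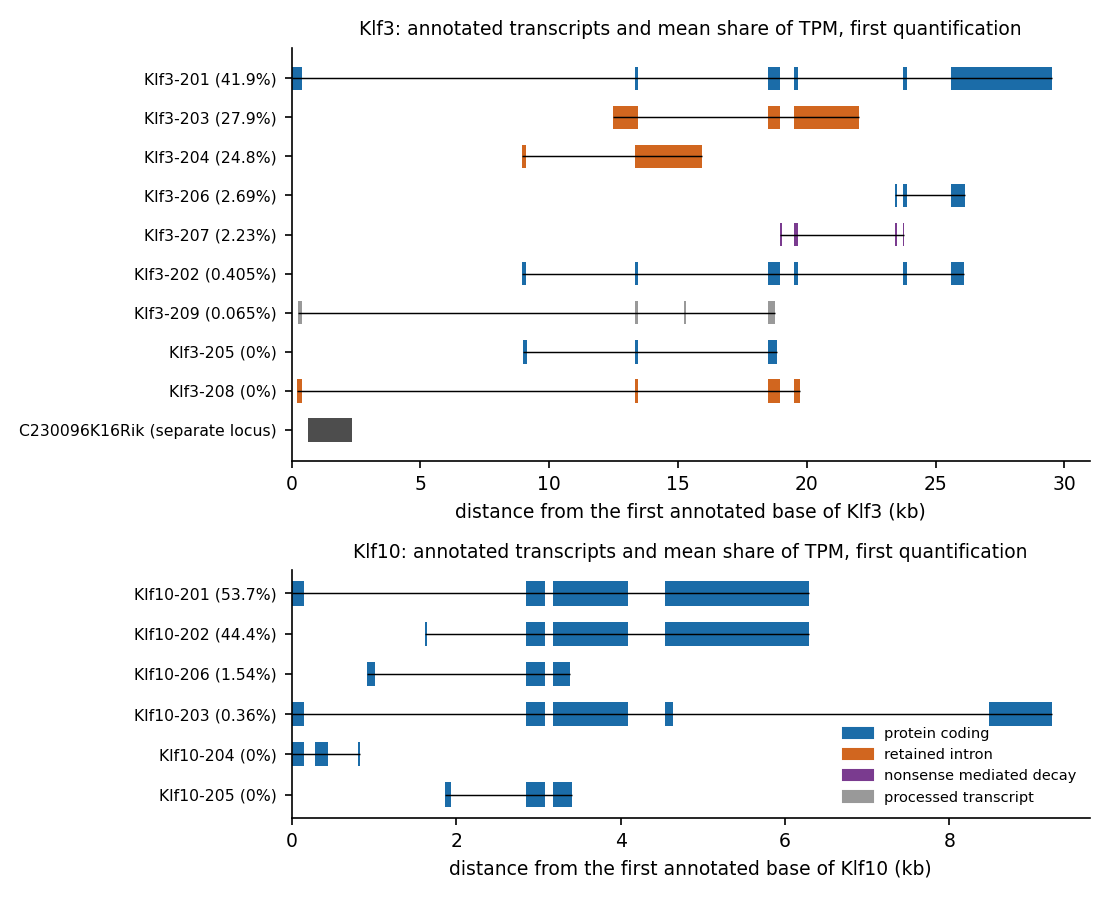
Exons (boxes) of the annotated transcripts of Klf3 and Klf10 by distance in kb from the first annotated base of each gene, coloured by transcript class, with the mean share of TPM in the first quantification beside each name. Retained-intron isoforms Klf3-203 and Klf3-204 begin 12.5 and 8.95 kb into the gene, and Klf10-204 ends within the first kb of Klf10.

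Other Klf genes lie beside or across unrelated transcripts, and without a stated strand setting reads of antisense partners cannot be told apart. Klf13 (chromosome 7, 63886351 to 63938915, minus strand) holds E030018B13Rik and Gm27252 on the other strand, at 3.34 ± 1.65 TPM and 1.57 ± 0.919 TPM (SD, n = 2). Klf7 (chromosome 1, 64029447 to 64122282, minus strand) overlaps Gm26649 at its 3' end. The first quantification gave Gm26649 86 counts in replicate 1 and 0 in replicate 2, and 41.2% of the 31-base words of Klf7-202 occur in transcripts of 2 other genes. Klf2 (chromosome 8, 72319033 to 72321656), Klf4 (chromosome 4, 55527143 to 55532466) and Klf10 (chromosome 15, 38291463 to 38300706) have no annotated neighbour within 5000 bases. Klf6 (chromosome 13, 5861482 to 5870394), Klf9 (chromosome 19, 23141226 to 23168134), Klf11 (chromosome 12, 24651274 to 24662789) and Klf16 (chromosome 10, 80567124 to 80577321) overlap no annotated gene other than a microRNA inside Klf9 that had 0 counts.

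Krüppel-like factor genes can be targets of their own family, so their promoters were searched for family boxes and for sites of signal-dependent factors. RefSeq promoter windows of GRCm38.p6 were matched for 8 of the 10 genes. Printed are the 100 bases upstream of the annotated start, all on the plus strand. The genes are the highest (Klf6), the next highest (Klf3), the lowest (Klf9) and the one with a MEF2-like match (Klf2). Capitals mark matches on either strand to CACCC, to GGGCGG or to a MEF2-like letter pattern (CTA and TAG with any 4 bases between).
Klf6, chr13:5861382-5861481: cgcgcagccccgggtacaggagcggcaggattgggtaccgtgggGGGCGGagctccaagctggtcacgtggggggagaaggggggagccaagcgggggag
Klf3, chr5:64803288-64803387: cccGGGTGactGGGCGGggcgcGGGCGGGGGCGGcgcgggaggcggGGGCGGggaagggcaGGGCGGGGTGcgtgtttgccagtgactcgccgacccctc
Klf9, chr19:23141126-23141225: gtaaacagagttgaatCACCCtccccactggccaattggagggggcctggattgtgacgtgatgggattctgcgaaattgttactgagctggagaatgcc
Klf2, chr8:72318933-72319032: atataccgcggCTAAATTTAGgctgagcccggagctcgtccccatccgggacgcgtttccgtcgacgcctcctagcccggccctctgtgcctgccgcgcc
The Klf3 window held 5 GC boxes and 2 CACCC boxes, 1 of them overlapping a GC box, and the Klf6 window held 1 GC box.

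Over the 250 bases upstream of the RefSeq start, a GC box (GGGCGG, either strand) was present in 7 of the 8 promoters, in 33.0% of all 32544 promoters of the table. CACCC was present in 5 of 8 and in 52.1% of all. The MEF2-like letter pattern was present in Klf2 only among the 8, and in 3.22% of all. An NF-kB-like letter pattern (GGGA and CC 4 bases apart) was present in Klf3 and Klf11 and in 17.7% of all, and the AP-1 pattern TGANTCA in Klf9 and in 6.73% of all. A match describes letters in the window and is not a measured binding site.

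None of the other 7 Klf genes reached 1 TPM in the first quantification. The highest was Klf8 at 0.57 TPM in both libraries, on 125 and 67 counts, which is above Klf4, Klf9 and Klf11, and Klf14 and Klf17 had 0 counts. Of the 9 Sp genes, which encode the related GC-box-binding Sp factors, 4 reached 1 TPM in both libraries. Sp3 was the highest of them at 11.0 ± 1.07 TPM (SD, n = 2), below Klf6, Klf3, Klf7 and Klf13, and Sp5, Sp6, Sp7 and Sp9 had 0 counts.

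The partners through which Krüppel-like factors act were present as RNA. All 16 listed corepressors and coactivators reached 1 TPM in each library, their median was 7.18 TPM, and none differed beyond 2-fold. The corepressor Ncor1 was highest at 40.1 TPM, then the acetyltransferase Ep300 at 26.5 TPM and the deacetylase Hdac1 at 21.3 TPM, and the lowest was the acetyltransferase Kat2a at 3.58 TPM. By mean TPM in the first quantification Klf6 and Klf3 were above each of these partners, and Klf4, Klf9, Klf11 and Klf16 were below all 16. The means of Klf2 and Klf10 were also below all 16. But in replicate 1 Klf2 (3.40 TPM) was above Kat2a (3.27 TPM) and the deacetylase Hdac2 (2.67 TPM). Klf10 (2.96 TPM) was above Hdac2 alone in that library. Hdac2 was named after its value was seen.

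The upstream inputs of Klf2 and Klf4, the kinase cascade of ERK5, the MEF2 factors it activates, their deacetylases and Foxo factors, had 11 of 13 genes at 1 TPM or more. Mef2a was highest at 49.6 TPM, followed by Map3k3 and Mef2d at 11.1 TPM each, and Mef2b was at 0 counts. These 3 genes were each above both Klf2 (2.92 TPM) and Klf4 (0.355 TPM). Of 12 genes tested, 1 differed beyond 2-fold, at a log2 ratio of 1.00, beside 8.75% of protein-coding genes. It was Foxo1, named after its value was seen.

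For Klf10 and Klf11, 9 of 10 genes of TGF-beta and Smad signalling reached 1 TPM. The Smad corepressors Skil at 57.7 TPM and Tgif1 at 54.6 TPM and the ligand Tgfb1 at 53.4 TPM were highest, and the inhibitory Smad7 was lowest at 0.49 TPM. Beyond 2-fold lay 1 of the 10, Smad7, at 0.18 and 0.80 TPM and a log2 ratio of 1.02 in counts, again beside 8.75% of protein-coding genes. The ubiquitin ligases that act on Klf proteins had 8 of 9 genes at 1 TPM or more, led by Wwp1 (14.7 TPM), Itch (13.9 TPM) and Siah1a (6.64 TPM), and Fbxo32 was lowest at 0.035 TPM.

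Klf9 is a glucocorticoid receptor target, and the receptor gene Nr3c1 was measured at 25.9 TPM, with its targets Dusp1 at 40.1 TPM and Tsc22d3 at 8.18 TPM. Of the 6 genes of that list 4 reached 1 TPM, and Zbtb16 was lowest at 0.015 TPM. None of the 5 tested genes of the list differed beyond 2-fold between the libraries in counts, and neither did Klf9. The median log2 ratio of these 5 genes was -0.72, while that of Klf9 was 0.17, with an interval that held 0.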

How the data were processed

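The authors deposited 2 quantifications of each library, on mm10 with annotation M21, per the series' text file. The first has, per the file headers, expected counts, TPM, posterior mean TPM with credibility bounds, and each transcript's percent of its gene, under the column names of RSEM. The second has estimated counts and TPM per transcript as deposited, under the names of kallisto, and was summed per gene here. For aligner, versions and strand setting: not given in the sources used here.

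Gene counts summed to 29400104 and 17789543 (first) and 39148498 and 31973596 (second). Rows naming no gene (0.766% and 0.272% of expected counts) were left out. The libraries' counts differed beyond sampling noise (chi-square per gene of 156 over 14831 genes), which does not show that they are separate cultures. Expected counts were rounded and scaled by TMM (edgeR 4.0.16, factors 0.944 and 1.06), with a prior count of 0.5 and a minimum mean count of 10. The ratio step was tested on simulated counts. No p-value was computed, since there is 1 group. Coding and long non-coding genes held 24.7% and 34.0% of TPM in the first quantification and 13.7% and 23.7% in the second, hence the rescaled TPM. Intervals and floors cover counting error only, as no molecular identifiers are described.

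Members and gene lists were chosen with earlier results of these data known. Named were all 10 genes whatever their value, the highest and lowest of the other Klf and Sp genes, at most the 3 highest and the lowest of each list, and isoforms that lead their gene or hold at least 10% of it. Alternatives were DESeq2 1.42.0 size factors, library totals, a prior count of 2, no count filter, a minimum of 5 TPM, posterior means, rescaled TPM, the second quantification and each library alone. Sequences are from the M21 transcripts and, for promoters, from RefSeq (GRCm38.p6).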

Additional observations from a re-analysis of the deposited data

How the results depend on the processing

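No paired analysis was possible because both libraries belong to 1 group. The median level of the 10 genes, 3.12 TPM, became 7.86 TPM in the second quantification, 10.9 on rescaled TPM and 3.33 with posterior means, and ranged from 3.07 to 3.18 TPM with each library alone. Of the 10 genes, 4 kept their place in the order of levels in the second quantification, and 5 to 8 did with each library alone. With a prior count of 2, 0 of the 10 genes differed beyond 2-fold, against 1. The median share of the leading isoform was 55.1% to 61.0% with each library alone. The median share of isoforms not annotated as coding was 37.4% in the second quantification, against 10.1%, and 7.01% to 13.3% with each library alone. Each of these medians is the value of Klf6. Of the values for single genes, 14 of 60 log2 ratios and 10 of 32 leading-isoform shares moved by more than their spread. Both totals include settings in which no move was possible. Leaving out the count filter repeats each ratio, and a share in 1 library alone cannot differ from the mean of both by more than their SD. Of the log2 ratios whose interval left out 0, that of Klf13 changed sign with the scaled counts of the second quantification (-0.01), and that of Klf7 was -0.13 on the rescaled TPM of the second quantification. Counts below about 100, as for Klf4, Klf9, Klf11 and Klf16, give wide intervals, and differences among them were not detectable beyond those named.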

Other observations

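In the second quantification Klf12, which is not among the 10 genes, was listed at 1.30 and 4.76 TPM (3.03 ± 2.44 TPM, SD, n = 2), against 0.07 and 0.00 TPM on 2 and 0 counts in the first. The antisense locus Gm13748, inside Klf7, had 176 and 182 counts in the second quantification and 1 count in each library in the first. Both values were singled out after they were seen.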
